A study of Saccharomyces cerevisiae with 13 samples.

Results

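This account compares the messages on which ribosomes were stacked in pairs with the messages on which ribosomes were translating, in yeast growing in the rich medium YPD. It rests on 4 of the 13 samples of the series, which are 2 replicates of disome-seq set against 2 replicates of monosome-seq, and it asks which functions of genes carried more or fewer disomes than their share of monosomes would give. All 4 samples came from the haploid laboratory strain BY4742, labelled MATα his3Δ1 leu2Δ0 lys2Δ0 uraΔ0 (the study's methods write the last allele as ura3Δ0), grown at 30 °C with no drug in the medium. Cells were lysed with cycloheximide in the lysis buffer, ribosome-bound mRNA was digested with RNase I, and protected fragments were cut from a gel and sequenced. The tables analysed here hold fragments of 55 to 65 nt for disome-seq and of 20 to 30 nt for monosome-seq, counted per gene. The study names the replicates as biological ones. Disome-seq held 47391 and 34707 footprints in replicates 1 and 2, against 800994 and 606942 in monosome-seq, and 5278 genes had at least 1 footprint in any of the 4. Apart from the enzyme digestion that they share, the assays differ in fragment length, in sequencing mode (paired-end for disomes, single-end for monosomes) and in depth, and what any of these adds to a difference between them cannot be told apart from the assay itself.

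A ribosome shields a short stretch of mRNA from nuclease. When a leading ribosome slows or pauses, the one behind can run into it, and the pair then shields a longer stretch as 1 fragment. Counting the long fragments of a gene therefore gives how often stacked pairs of the length class counted were caught on its messages. Counting the short ones gives how many single ribosomes were there. Pairs that shield under 55 nt are left out of these counts. The study describes such a shorter class and proposes that the leading ribosome's A-site, where codons are read, is then open. Short fragments of single ribosomes, which it ties to the same state, stay in the monosome-seq counts. What this difference adds to the fold changes was not tested. A gene that takes a larger part of the disome-seq library than of the monosome-seq library carried more disomes than its share of monosomes would give, and a smaller part means fewer. Collided ribosomes in yeast are known to be recognised by the ubiquitin ligase Hel2, and stacks can also be passing queues behind a slow codon, a nascent chain in the exit tunnel or a terminating ribosome.

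The labels were checked against marker genes. The samples held footprints of the α-specific genes MF(ALPHA)1, MF(ALPHA)2 and STE3, with 448 and 358 monosome footprints for the last, while the a-specific genes STE2, STE6 and ASG7 had 1 monosome footprint each over both replicates and BAR1, MFA1 and MFA2 had 0. LEU2 and LYS2 had 0 footprints in all 4 samples, and both are labelled as deleted. URA3, labelled as deleted, nevertheless had 5 and 0 disome footprints, against 35 and 21 monosome footprints, and HIS3, whose allele removes part of the gene, had 3 and 1, against 41 and 40. Their part in the other results was not tested. The replicates of disome-seq were further apart than those of monosome-seq. The chi-square per gene between replicates, which is near 1 for counting noise alone, was 4.17 over 998 genes in disome-seq and 1.35 over 4657 genes in monosome-seq.

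Of the 3089 genes with enough footprints to be tested by edgeR's quasi-likelihood test, 279 (9.03%) were called higher and 291 (9.42%) called lower in disome-seq at a Benjamini-Hochberg adjusted p of 0.05. Here and below, "rose" and "fell" mean higher and lower in disome-seq than in monosome-seq by that test, RPM is a gene's TMM-scaled rate of footprints, as edgeR's cpm function gives it, and fold changes are given on the log2 scale with disome-seq in the numerator. The median gene lay at -0.37, and changes are best read against this value. The test fits 1 spread per gene for both assays, so its standard errors and p-values do not measure the wider spread of disome-seq on its own. Limma's voom with weights per assay lets the assays differ in spread, and it also called 129 of the risers and 119 of the fallers. Its adjusted p is set beside several values below. The 10 genes with the most disome footprints held 26.3% and 23.1% of the disome-seq libraries, against 14.9% and 15.1% of the monosome-seq libraries. How many genes rose and how many fell moved with the scaling. By library totals 223 rose and 511 fell, with a median gene at -0.63, and with DESeq2's size factors 294 rose and 251 fell, with a median gene at -0.31. A smaller core did not depend on any single library: 71 of the risers and 24 of the fallers were called in each of the 4 fits that leave out 1 library, and these are named below as the core genes. Every other gene said to rise or fall lost its call in at least 1 of those fits. Each such fit takes its spread only from the assay that keeps 2 libraries. A lost call therefore need not mean that the fold change moved or rested on the library left out. The fold change of ADH1, for example, lay between 1.38 and 1.49 over the 4 fits, though its call was lost in some. In the plot of fold change against monosome level, genes under about 30.6 RPM in monosome-seq are present only where disome-seq was high enough for the low-count filter, so rises without falls at that end are set by the filter.

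**Figure D1:**
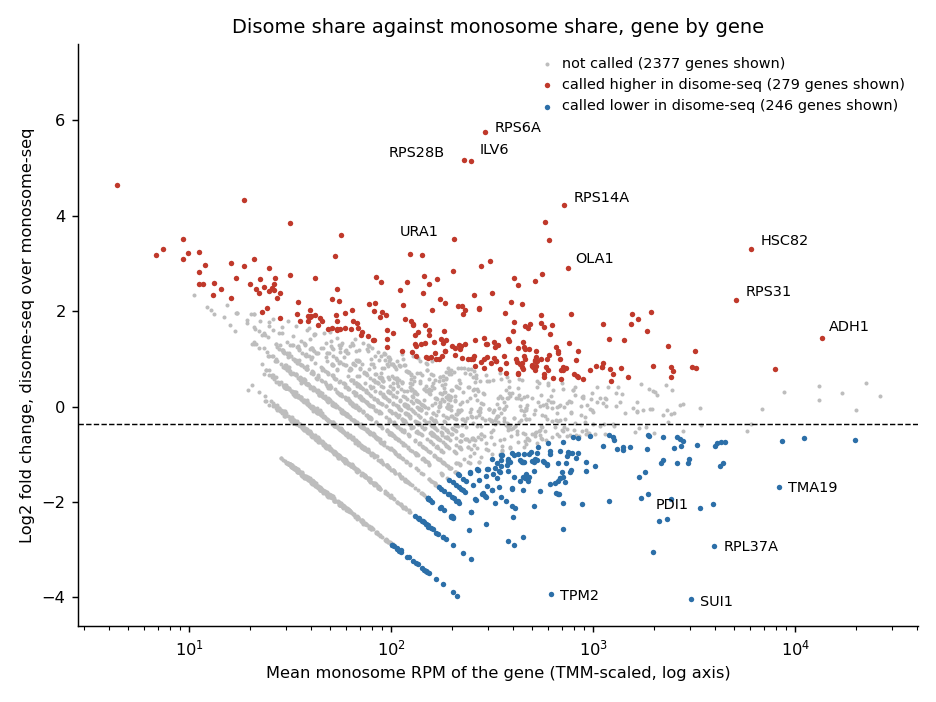
Each point is a gene tested, placed by its mean monosome-seq RPM (horizontal, log axis) and its fold change on the log2 scale, disome-seq in the numerator (vertical), and the dashed line marks the median gene at -0.37. RPS6A, RPS28B and ILV6 stand highest, at 5.76, 5.16 and 5.14, and SUI1 stands lowest, at -4.02. The 187 genes with 0 disome footprints, whose fold change has no lower limit, are not drawn.

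The genes that rose most were ribosomal protein genes, a regulatory subunit of amino acid synthesis and a set of low-abundance messages. RPS28B, which encodes the small subunit protein eS28, had 331 and 285 disome footprints in replicates 1 and 2, against 211 and 146 monosome footprints, so disome footprints outnumbered monosome footprints on this gene although the disome-seq libraries were far smaller. For RPS28B the log2 change was 5.16 (standard error 0.23, adjusted p = 1.7e-103 by edgeR, 1.3e-06 by voom), and the assays did not overlap. ILV6, the regulatory subunit of acetolactate synthase in branched-chain amino acid synthesis, had 612 and 93 disome footprints, against 222 and 161 monosome footprints. By the fit ILV6 stood at 5.14 (standard error 0.23, adjusted p = 9.6e-100 by edgeR, 0.00035 by voom). ILV6 was still at 3.52 without disome-seq replicate 1, which held most of its footprints. RPS6A, a protein of the small subunit, had 1172 and 126 disome footprints, against 278 and 177 monosome footprints, and the largest rise of all, 5.76, or 3.71 without disome-seq replicate 1. The 2 disome-seq values of ILV6 and RPS6A lay far apart, yet the lower of them was above both monosome-seq values, in RPM. RPS14A rose by 4.22 and RPS23B by 3.87, both with close disome-seq replicates (606 and 403 and 258 and 356 footprints). The other genes among the 10 largest rises were low in monosome-seq: RPB9, a subunit of RNA polymerase II, had 22 and 12 disome footprints, against 26 and 22 monosome footprints, and NNR1, an epimerase that repairs damaged NADH, had 18 and 11 disome footprints, against 17 and 12 monosome footprints. TSR2, which acts in small subunit maturation, had 42 and 11 disome footprints, against 59 and 30 monosome footprints, and its rise of 3.61 was 2.54 without disome-seq replicate 1. YEA4, a sugar nucleotide transporter, and AYT1, an acetyltransferase, rose by 4.63 and 3.51 on no more than 7 footprints in any sample. With NNR1, they lay under the filter's 30.6 RPM in both monosome-seq replicates and were tested only because disome-seq was high. YEA4 rose by 3.97 without disome-seq replicate 2. Reads of RPS6A could be placed on few stretches, since 18.9% of its 28-nt windows occur in no other coding sequence. Apart from AYT1, which lost its call in 3 of the 4 fits without 1 library, the 10 largest rises were all core genes.

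Among genes with more footprints, the rise of HSC82 had the greatest weight. HSC82, the constitutive form of the chaperone Hsp90, had 3166 and 1485 disome footprints, against 5475 and 3907 monosome footprints, an RPM of 60273 ± 20615 in disome-seq and 6068 ± 299 in monosome-seq (SD, n = 2 each). The fitted log2 change of HSC82 was 3.31 (standard error 0.24, adjusted p = 3.7e-39 by edgeR, 8.8e-06 by voom), with 2.91 without disome-seq replicate 1. HSP82, the heat-induced form of the same chaperone, had 57 and 51 disome footprints, against 1194 and 890 monosome footprints, and was not called (0.10, adjusted p = 0.79 by edgeR). URA1, the dihydroorotate dehydrogenase of pyrimidine synthesis, had 77 and 95 disome footprints, against 163 and 149 monosome footprints. For URA1 the log2 change was 3.51 (standard error 0.18, adjusted p = 7.6e-77 by edgeR, 0.00028 by voom), and the assays did not overlap. ADH1, the main alcohol dehydrogenase of fermentation, had 1486 and 1242 disome footprints, against 11379 and 9410 monosome footprints, and rose by 1.43, which lost its call without monosome-seq replicate 1 and likewise without replicate 2 (adjusted p = 0.10 and 0.068 by edgeR). The other genes among the 10 with the most disome footprints include glycolytic enzymes and the elongation factor 3 gene YEF3. By edgeR, TDH3 (0.23), ENO2 (0.50), PGK1 (0.44), CDC19 (0.29), PDC1 (-0.07) and YEF3 (0.13) were not called. All of them lay above the median gene at -0.37, and DESeq2 called PGK1 and TDH3 higher (adjusted p = 4.9e-08 and 0.02 by DESeq2) but not the others. A high disome count alone was thus not called a rise by edgeR, since these genes were also prominent among monosomes. The plot of 18 genes shows the values of each library.

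**Figure D2:**
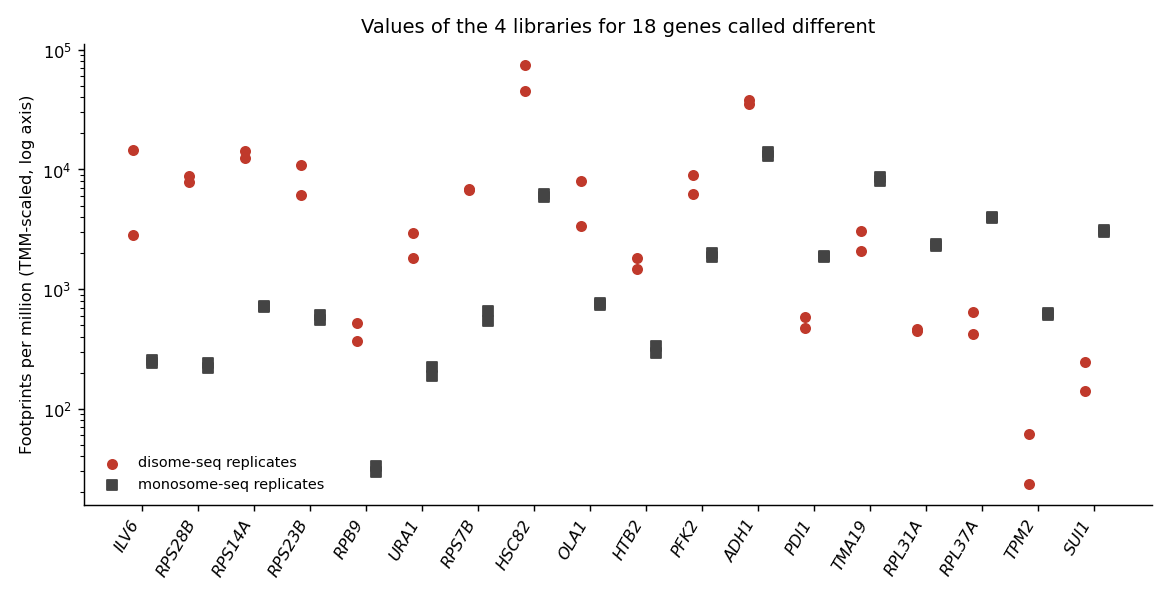
For each of 18 genes called different, disome-seq replicates (circles) stand left of monosome-seq replicates (squares), in TMM-scaled RPM on a log axis. From ILV6 to ADH1 both circles lie above both squares, and from PDI1 to SUI1 both lie below. The circles of ILV6 (612 and 93 footprints) are the furthest apart among the risers shown.

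The steepest falls were of genes with hardly any disome footprint on well-translated messages. SUI1, the initiation factor eIF1 that sets start codon choice, had 6 and 8 disome footprints, against 2717 and 2000 monosome footprints, an RPM of 194 ± 73.8 in disome-seq and 3057 ± 83.3 in monosome-seq (SD, n = 2 each). By the fit SUI1 stood at -4.02 (standard error 0.32, adjusted p = 1e-33 by edgeR, 0.008 by voom). TPM2, the minor tropomyosin that binds actin cables, had 1 and 2 disome footprints, against 532 and 419 monosome footprints. The fitted log2 change of TPM2 was -3.94 (standard error 0.51, adjusted p = 4.8e-13 by edgeR, 0.0035 by voom), or -3.33 without disome-seq replicate 1 and -4.62 without disome-seq replicate 2. RPL37A, a large subunit protein, had 18 and 21 disome footprints, against 3516 and 2605 monosome footprints (-2.92). CPR5, a prolyl isomerase of the ER, fell by 3.04, and TMA19, a conserved protein found with ribosomes, had 130 and 68 disome footprints, against 7547 and 5325 monosome footprints, and fell by 1.68; both were named after their values were seen. All 5 are core genes. The 10 largest fitted falls were of genes with 0 disome footprints in both replicates, for which only a bound can be given. Bounds here and below take 3 footprints over both replicates (40.1 RPM) as the limit for a count of 0. That limit is nominal: it allows for counting noise alone, and disome-seq replicates were further apart than that. At this limit AIM29, with 280 and 152 monosome footprints, was at least 6.84-fold lower. YPT31, a Rab GTPase of the Golgi, was at least 3.86-fold lower. The histone H2B ubiquitin ligase BRE1 was at least 3.54-fold lower, the GTPase RAS2 at least 3.27-fold, the protease YPS7 at least 3.03-fold and the Mediator subunit GAL11 at least 2.95-fold. SUR7 of the plasma membrane, the mRNA export factor MTR2, the exonuclease RNH70 and the chitin synthase CHS1 had bounds from 2.43-fold to 2.61-fold. In all, 45 of the genes that fell had 0 disome footprints, with bounds from 1.47-fold to 6.84-fold, while 142 other tested genes with 0 disome footprints were not called. None of these 10 genes named was a core gene, and all 10 lost their call without disome-seq replicate 1 (adjusted p from 0.072 to 0.15 by edgeR).

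Ribosomal protein genes held many calls in both directions. Of the 130 tested, 50 (38.5%) rose and 28 (21.5%) fell, against 9.03% and 9.42% of all genes tested. They are highly translated, with a median monosome level of 672 RPM in the small subunit and 689 RPM in the large, and among the 618 genes of highest monosome level, ribosomal protein genes included, 135 rose and 168 fell, so calls of either kind are common at that level. In the small subunit 26 of 56 rose and 10 fell, with a median of 0.42, and in the large subunit 24 of 74 rose and 18 fell, with a median of 0.28, against the median gene at -0.37. By library totals 23 and 16 of the small subunit rose and fell, but in the large subunit the falls then outnumbered the rises, 24 to 18. Without disome-seq replicate 1 the small subunit had 20 rises and 8 falls and the large subunit 16 and 14, and without monosome-seq replicate 1 the counts were 15 and 2 and 8 and 9. Small subunit genes as a whole took 10.6% ± 0.598 of the disome-seq libraries and 6.69% ± 0.048 of the monosome-seq libraries (SD, n = 2 each), while large subunit genes took 8.75% ± 0.386 and 9.46% ± 0.299. Without the 10 genes with the most disome footprints these mean shares were 12.2% and 7.83%, and 11.6% and 11.1%. The steep rises were mostly of small subunit genes: RPS7B had 288 and 217 disome footprints, against 574 and 363 monosome footprints (3.49), and RPS29A, RPS29B, RPS30B and RPS21B rose by between 1.74 and 2.56, RPS29A by 1.78 without disome-seq replicate 2. In the large subunit RPL18B led, with 43 and 41 disome footprints, against 101 and 87 monosome footprints (3.20), followed by RPL42A (3.17), RPL23A (3.04) and RPL42B (2.94), and RPL15A had 324 and 218 disome footprints, against 2802 and 2105 monosome footprints (1.18, called higher). The falls of the large subunit included RPL31A (19 and 15 disome footprints, against 2071 and 1518 monosome footprints), RPL31B, RPL20A, RPL20B, RPL13B and RPL12B, by between 1.48 and 2.91, and the call of RPL31B was lost without disome-seq replicate 1 (-2.13, adjusted p = 0.067 by edgeR). RPS8A led the falls in the small subunit, with 52 and 20 disome footprints, against 3376 and 2627 monosome footprints (-2.04), but only 20.7% of its 28-nt windows occur in no other coding sequence.

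Most ribosomal proteins of yeast are encoded by 2 near-identical genes, and reads that fit both had been discarded, so a duplicated gene is counted only where its sequence is its own. Longer reads are unique more often, so such genes are open to disome reads over more of their sequence than to monosome reads. In RPS6A 18.9% of 28-nt windows and 30.7% of 58-nt windows were unique, and in RPL18B 66.9% and 88.3%. In RPS8A, which fell, they were 20.7% and 25.3%. What this adds to their fold changes was not tested. Among 40 ribosomal protein genes with at least 95% unique 28-nt windows 14 rose and 10 fell, and among the 90 others 36 rose and 18 fell. Of 56 pairs in which both copies were tested, 16 had both copies higher, 6 had both lower, 3 had one higher and the other lower, and in the remaining 31 at least 1 copy was not called. The copies of 21 pairs differed by over 1 log2 unit, though whether they differ from each other was not tested. RPS7A (112 and 79 disome footprints, against 3964 and 2672 monosome footprints) fell by 0.75 while RPS7B rose by 3.49, RPL13A rose by 0.61 while RPL13B fell by 1.93, and RPL27B rose by 0.97 while RPL27A fell by 0.86. Of these 6 genes RPS7B and RPL13B are core genes, and the other calls are lost in some fits without 1 library (highest adjusted p from 0.26 to 0.52 by edgeR). RPS6B rose by 2.37, beside 5.76 for RPS6A, and RPS14B by 2.45, or 1.66 without disome-seq replicate 2, beside 4.22 for RPS14A.

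**Figure D3:**
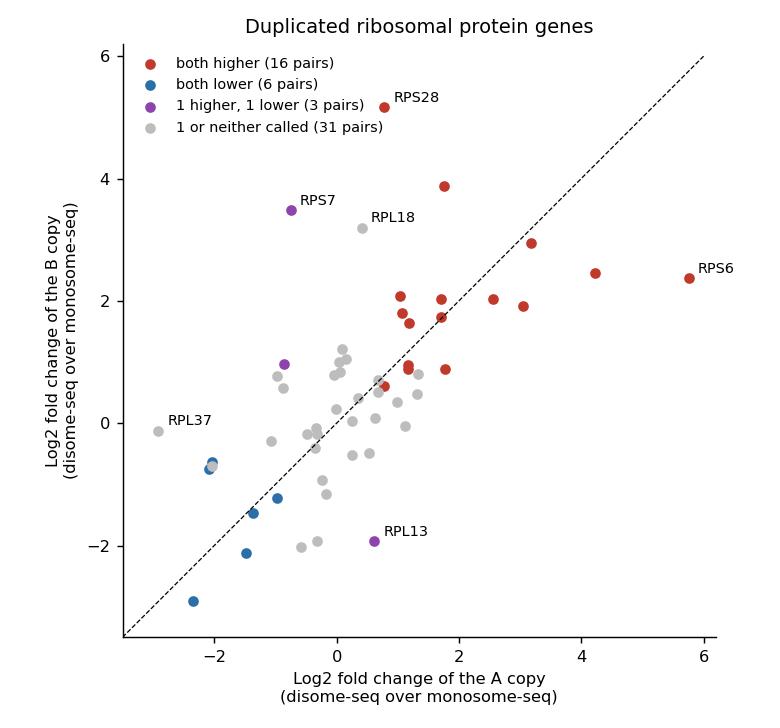
Each point is a pair of duplicated ribosomal protein genes, placed by the log2 fold change of its A copy (horizontal) and its B copy (vertical), both disome-seq over monosome-seq; on the dashed line the copies would be alike. Pairs above 2.2 units of difference carry a name: RPS28 lies far above the line (0.78 and 5.16) and RPS6 far below it (5.76 and 2.37).

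RPS28A and RPS28B are shown in full because the pair held the widest gap of the 56, 5.16 for RPS28B and 0.78 for RPS28A, on coding sequences of 204 nt that differ at 24 positions. RPS28A lies at chrXV:648804-649007 on the reverse strand and RPS28B at chrXII:673131-673334 on the forward strand of the R64 genome, each as 1 coding exon. Sequences from the R64 reference are written from start to stop codon, 5′ to 3′, with capitals at the positions where the pair differs.
RPS28A: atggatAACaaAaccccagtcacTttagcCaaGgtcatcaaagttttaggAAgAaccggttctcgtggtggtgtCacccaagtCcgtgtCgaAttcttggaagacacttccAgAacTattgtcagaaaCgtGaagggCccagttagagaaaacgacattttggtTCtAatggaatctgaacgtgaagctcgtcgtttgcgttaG
RPS28B: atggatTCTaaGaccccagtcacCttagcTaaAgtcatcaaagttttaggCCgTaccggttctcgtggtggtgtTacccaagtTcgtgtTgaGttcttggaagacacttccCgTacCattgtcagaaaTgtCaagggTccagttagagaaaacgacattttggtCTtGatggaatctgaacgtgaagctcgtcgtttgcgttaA
Of their 28-nt windows 95.5% were unique to each copy, so most footprints on this pair could be assigned. RPS28A had 42 and 46 disome footprints, against 587 and 471 monosome footprints, and its rise of 0.78 lost its call in 3 of the 4 fits without 1 library, while RPS28B is a core gene. In both disome-seq replicates RPS28B held more footprints than RPS28A, and in both monosome-seq replicates fewer. Gene totals do not show where on the message the pairs were stacked.

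All 4 genes that encode ubiquitin rose, against 9.03% of all genes tested. RPS31 and RPL40A carry ubiquitin fused to a ribosomal protein, and UBI4 encodes a chain of ubiquitin repeats. RPL40A had 122 and 159 disome footprints, against 469 and 383 monosome footprints (2.79), RPL40B rose by 1.26 and UBI4 by 2.25, and all but RPL40B are core genes. RPS31 had 1627 and 305 disome footprints, against 4394 and 3443 monosome footprints, and rose by 2.23, of which 0.87 was left without disome-seq replicate 1. The group took 2.69% ± 1.63 of the disome-seq libraries and 0.688% ± 0.0166 of the monosome-seq libraries (SD, n = 2 each), and none of the 4 has 95% of its 28-nt windows unique. For RPL40A 63.3% of 28-nt windows and 90.6% of 58-nt windows were unique. Among the 5 P-stalk genes, which form the flexible arm that recruits elongation factors, RPP2B (68 and 67 disome footprints, against 489 and 391 monosome footprints) and RPP2A rose by 1.66 and 0.58 and RPP0 fell by 0.74, of which only the call of RPP2B held in every fit without 1 library.

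Translation factors held both rises and falls. Over all genes tested, 9.03% rose and 9.42% fell, and among the 618 of highest monosome level 135 rose and 168 fell. Of 14 elongation and termination factor genes 4 rose and 3 fell. The rises were of TEF1 and TEF2, which encode eEF1A, by 2.19 and 1.97, EFT2, one of the eEF2 genes, by 2.12 (1.45 without disome-seq replicate 1), and TEF4, the gamma subunit of eEF1B, by 1.94 (343 and 120 disome footprints, against 1353 and 1037 monosome footprints), or by 1.24 without disome-seq replicate 1. Only 4.1% of the 28-nt windows and 8.8% of the 58-nt windows of TEF1 are unique. Its footprints thus come from a small part of the gene, and the same holds for TEF2 and EFT2. The release factor eRF1 gene SUP45 had 2 and 4 disome footprints, against 278 and 221 monosome footprints, and fell by 2.01, a call lost without disome-seq replicate 1 (adjusted p = 0.17 by edgeR), and HYP2 (eIF5A) and the recycling factor gene RLI1 fell by 0.80 and 1.16, calls lost without monosome-seq replicate 1 and likewise without replicate 2. Of 27 initiation factor genes 6 rose and 4 fell, a split that was 5 and 7 by library totals. CAF20, which binds eIF4E and represses cap-dependent initiation, had 29 and 25 disome footprints, against 95 and 87 monosome footprints, and rose by 2.60, and TIF3 (eIF4B) rose by 2.14, against the fall of SUI1. TEF1, TEF2, EFT2, TEF4, CAF20 and TIF3 are core genes. Of 21 aminoacyl-tRNA synthetase genes 3 rose and 6 fell, with DPS1 for aspartate at 0.82 and CRS1 for cysteine at -2.09, both lost in some fit without 1 library. Among 25 genes for sensing collisions and rescuing ribosomes, 2 rose and 3 fell, and the median was that of all genes, -0.37. Over the 12 other settings it lay between -0.29 and 0.27 relative to all genes. CDC48, the segregase that extracts stalled nascent chains, rose by 0.83, and HEL2, the collision sensor, had 0 disome footprints against 57 and 44 monosome footprints, at least 1.64-fold lower. Both calls were lost in 2 or more fits without 1 library.

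Ribosome assembly factors were the largest list, with 8 of 113 higher and 13 lower, against 9.03% and 9.42% of all genes tested. By library totals 7 were higher and 22 lower. The list's median was -0.41, against -0.37 for all genes. The fits without 1 library left 2 to 5 rises and 1 or 2 falls. DRS1, an RNA helicase of the large subunit pathway, had 53 and 10 disome footprints, against 160 and 125 monosome footprints, and its rise of 2.18 rested on disome-seq replicate 1, without which it was 0.73 (adjusted p = 0.33 by edgeR). DBP9, another helicase of that pathway, had 1 and 0 disome footprints, against 137 and 88 monosome footprints, and fell, a call lost in 3 of the 4 fits without 1 library.

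The cytosolic Hsp70 system held rises and no falls, with 8 of 19 genes higher and 0 lower, against 9.03% and 9.42% of all genes tested. The list's median was 0.43, against -0.37 for all genes. The Hsp70 genes SSA1 (206 and 232 disome footprints, against 1418 and 1149 monosome footprints) and SSA2 rose by 1.84 and 0.83, SSB1, whose protein sits at the tunnel exit, by 0.84, and the Hsp40 genes YDJ1 and SIS1 by 0.98 and 0.82. SSB2 was not called (0.09). HSP26, a small heat-shock protein, had 21 and 20 disome footprints, against 65 and 62 monosome footprints, and rose by 2.73, and HSP104, the disaggregase, rose by 1.35. SSA1 and HSP26 are core genes, and the calls of SSA2 and SSB1 were lost without monosome-seq replicate 1 and likewise without replicate 2. By library totals the group had 6 rises and 2 falls, and without monosome-seq replicate 1 or 2 it had 3 and 2 rises. Only 35.3% of the 28-nt windows of SSA1 and 39.4% of those of SSB1 are unique, and 44.0% and 60% of their 58-nt windows. Besides HSC82, the Hsp90 system had few calls: STI1 and SBA1 rose by 0.68 and 0.95, HCH1 fell with 1 and 1 disome footprints against 108 and 101 monosome footprints, and 10 of 14 genes were not called. The median of the Hsp90 list, HSC82 included, was -0.02, against -0.37 for all genes. Over the 12 other settings this median lay between 0.08 and 0.57 above that of all genes. The group took 5.89% ± 1.68 of the disome-seq libraries and 1.11% ± 0.0295 of the monosome-seq libraries, a ratio of 5.33, but 1.05 once the 10 genes with the most disome footprints, HSC82 among them, were left out of both. Of 15 genes of the chaperonin CCT, prefoldin and the nascent chain complex NAC 3 rose and 2 fell, led by EGD2 of the NAC (1.41) and CCT7 (-1.68), both lost without disome-seq replicate 1, when CCT7 was at -0.81. In mitochondria, 1 of 6 chaperone genes was called, MGE1 with 2 and 4 disome footprints, against 369 and 251 monosome footprints (-2.32), which lost its call without disome-seq replicate 1 (adjusted p = 0.11 by edgeR).

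Carbon metabolism held calls in both directions. Shares over all genes tested were 9.03% higher and 9.42% lower. In glycolysis 5 of 18 genes rose and 5 fell (7 fell by library totals, and 0 without monosome-seq replicate 1 and likewise without replicate 2). PFK2, the beta subunit of phosphofructokinase, had 265 and 295 disome footprints, against 1624 and 1342 monosome footprints, and rose by 1.98, while PFK1, the alpha subunit, fell by 0.60. The falls were small (HXK2, PGI1, FBA1, GPM1 and PFK1, by 0.60 to 0.71), and the group's share of the libraries was 13.8% ± 2.23 in disome-seq and 15.2% ± 0.0737 in monosome-seq (SD, n = 2 each). The median of the glycolysis list, 0.26, lay above that of all genes, -0.37. In fermentation, acetate and glycerol metabolism 6 of 12 rose and 1 fell, with a median of 0.79: ALD4, the mitochondrial aldehyde dehydrogenase, rose by 1.72 and ADH1 by 1.43, and GPP1, a glycerol phosphatase, fell by 0.64. Of the 12, 1 rose without monosome-seq replicate 1 and likewise without replicate 2. Trehalose and glycogen genes had 3 of 12 higher and 0 lower (1 higher in each fit without 1 library and, with 1 lower, by library totals), led by UGP1 (68 and 44 disome footprints, against 405 and 327 monosome footprints, 1.65), which makes UDP-glucose. Of 32 respiratory chain and ATP synthase genes 4 rose and 0 fell, with a median of 0.17. They were ATP2, ATP7, ATP18 and COX12, of which ATP2 had 50 and 40 disome footprints, against 330 and 281 monosome footprints, and COX12 had 8 and 5 disome footprints, against 13 and 18 monosome footprints. With the filter on monosome-seq alone 2 of 27 rose and the median was -0.13, and 2 rises were left without disome-seq replicate 1 and likewise without monosome-seq replicate 1. COX12 and ATP18 lay under the filter's level in monosome-seq and were tested only through disome-seq. ATP2 is a core gene, and ATP7 was at 0.22 without disome-seq replicate 1. In the tricarboxylic acid cycle 2 of 26 rose (MDH1 by 1.51) and 2 fell (PDB1 by 1.61), while by library totals 2 rose and 5 fell. The list's share was 0.534% ± 0.0186 in disome-seq and 0.751% ± 0.023 in monosome-seq, a ratio of 0.71. This ratio was 0.80 without the 10 genes with the most disome footprints. The list's median, -0.16, lay above that of all genes, -0.37. Mitochondrial ribosomal proteins, mostly scarce messages, had 3 of 43 higher and 0 lower. Their median was -0.72, or -0.21 with the 6 genes that had 0 disome footprints set at their bound, when the median gene lay at -0.26. MRPL39 had 3 and 3 disome footprints, against 9 and 3 monosome footprints. It was a gene tested only through disome-seq, and its call was lost in every fit without 1 library. Of 23 antioxidant genes 8 rose and 1 fell, with a median of 0.28: SOD2, the manganese superoxide dismutase of mitochondria, had 50 and 30 disome footprints, against 140 and 117 monosome footprints (2.67), GND1 of the pentose phosphate pathway rose by 1.73, and GPX2, a glutathione peroxidase, fell with 2 and 0 disome footprints, against 119 and 103 monosome footprints. PFK2, UGP1, SOD2 and GND1 are core genes. Of the 8 antioxidant rises 4 were left without disome-seq replicate 1 and 2 without monosome-seq replicate 1 and likewise without replicate 2.

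**Figure D4:**
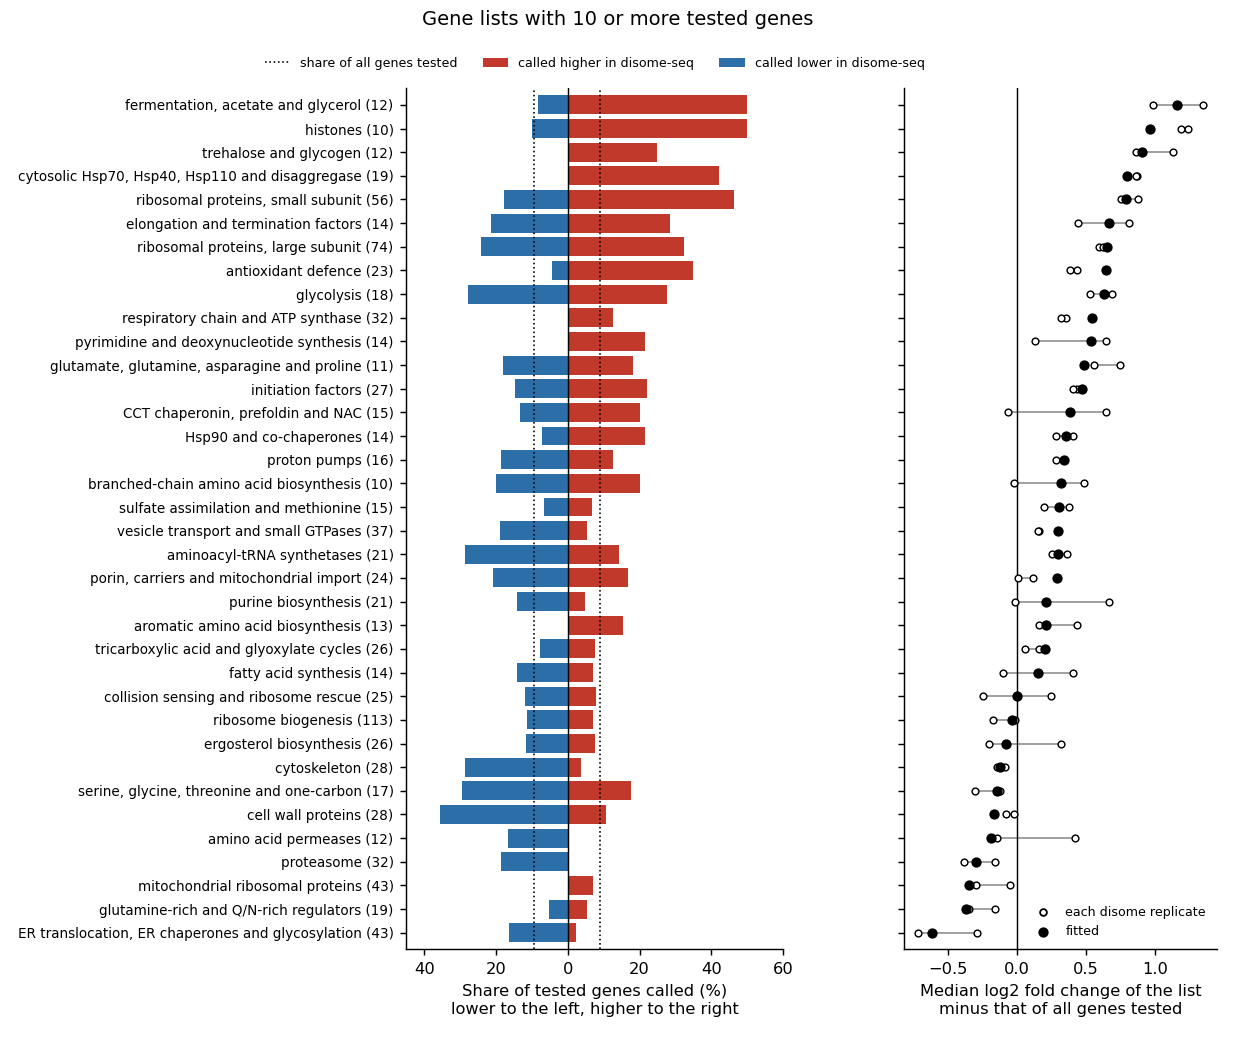
Gene lists with 10 or more tested genes (numbers in brackets), ordered by their median. The left panel gives the share of genes called lower (bars to the left) and higher (bars to the right) with dotted lines at the shares of all genes tested, 9.42% and 9.03%; the right panel gives the list's median log2 fold change minus that of all genes, fitted (filled) and for each disome-seq replicate (open). Fermentation genes lie 1.16 above all genes and genes of ER translocation, chaperones and glycosylation 0.62 below.

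Amino acid and nucleotide synthesis had few calls beyond single genes. Over all genes tested, 9.03% rose and 9.42% fell. In branched-chain synthesis ILV6 and ILV2, the regulatory and catalytic subunits of the same enzyme, rose by 5.14 and 0.84, ILV5 fell by 0.76, and LEU9 fell with 1 and 1 disome footprints, against 158 and 127 monosome footprints. GLN1, the glutamine synthetase, had 265 and 126 disome footprints, against 1286 and 1069 monosome footprints, and rose by 1.73, while ASN1, an asparagine synthetase, fell by 1.19. SHM2, the cytosolic serine hydroxymethyltransferase, had 131 and 92 disome footprints, against 642 and 545 monosome footprints, and rose by 1.94, and GCV3 of glycine cleavage had 3 and 1 disome footprints, against 219 and 165 monosome footprints, and fell by 2.22. ILV6, GLN1, SHM2 and, in purine synthesis, ADE13 are core genes, while LEU9, ASN1 and GCV3 each lost their call in 3 fits without 1 library. Of the 11 arginine and lysine synthesis genes tested none was called, 1 of 7 histidine genes rose (HIS7, 1.05) and 2 of 13 aromatic amino acid genes rose. In pyrimidine and deoxynucleotide synthesis 3 of 14 rose and 0 fell, URA1 and the ribonucleotide reductase genes RNR2 and RNR4. RNR2 had 101 and 17 disome footprints, against 544 and 452 monosome footprints, and without disome-seq replicate 1 its fold change was -0.32 in place of 1.25, while URA1 is a core gene. In purine synthesis 1 of 21 rose and 3 fell, among them ADE13 with 8 and 6 disome footprints, against 580 and 452 monosome footprints (-1.84). Of 26 ergosterol and 14 fatty acid synthesis genes 2 and 1 rose and 3 and 2 fell. FAA1, an acyl-CoA synthetase, is a core gene, with 38 and 36 disome footprints, against 333 and 256 monosome footprints (1.37).

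In the lists of the secretory pathway, the cell surface, the cytoskeleton and the proteasome, more genes were called lower than higher. Of all genes tested 9.03% rose and 9.42% fell. Falls outnumbered rises among well-translated genes in general, with 135 rises and 168 falls in the 618 genes of highest monosome level. In the next 618 genes 57 rose and 79 fell. In ER translocation, folding and glycosylation 1 of 43 rose and 7 fell, and the median was -0.99, or -0.90 with the 3 genes that had 0 disome footprints set at their bound. PDI1, the protein disulfide isomerase of the ER, had 20 and 19 disome footprints, against 1647 and 1231 monosome footprints. For PDI1 the log2 change was -1.84 (standard error 0.25, adjusted p = 2.6e-11 by edgeR). The mannosyltransferase genes PMT1 and PMT2, the oligosaccharyltransferase subunits WBP1 and OST1 and the ER Hsp70 KAR2 fell by 0.90 to 1.76, and SEC62 of the translocon, with 0 disome footprints, was at least 1.99-fold lower. Of the 7 falls 2 were left without monosome-seq replicate 1 and likewise without replicate 2, and PDI1 and PMT2 are core genes. SSS1, a small translocon subunit, rose by 1.56, a call lost without disome-seq replicate 2 (0.72). The list took 0.490% ± 0.0244 of the disome-seq libraries and 1.08% ± 0.0142 of the monosome-seq libraries, a ratio of 0.45. Of 28 cell wall proteins 3 rose and 10 fell, with SED1, a structural mannoprotein, at -1.97 and FKS1, the glucan synthase, at -1.36 as core genes, and SCW11, a glucanase-like wall protein, at 1.40. Of the 10 falls 2 were left without monosome-seq replicate 1 and likewise without replicate 2. The share was 1.34% ± 0.153 in disome-seq and 2.19% ± 0.0779 in monosome-seq. Of 28 cytoskeleton genes 1 rose (COF1, cofilin, 1.08) and 8 fell, among them TPM2, the myosin genes MYO2, MYO4 and MYO5 and the tubulin gene TUB3. Of these 5 TPM2 is a core gene, and the myosin genes had at most 9 disome footprints in a replicate. Of the 8 falls 2 were left without disome-seq replicate 1 and likewise without replicate 2, when 2 genes also rose. In vesicle transport 2 of 37 rose and 7 fell, although the list's median of -0.07 lay above that of all genes, and without disome-seq replicate 1 there was 1 rise and 1 fall. ARF2, a GTPase of vesicle budding, had 51 and 59 disome footprints, against 396 and 311 monosome footprints, and rose by 1.68 as a core gene, and the COPII and COPI coat genes SEC23, SEC24, SEC21 and COP1 fell by 1.00 to 1.55, of which SEC24 is a core gene and the other 3 lost their call in every fit without 1 library. No proteasome gene rose and 6 of 32 fell (PRE3, PRE5, PRE9, RPN6, RPN12 and RPT4), with a share of 0.489% ± 0.024 in disome-seq and 0.811% ± 0.00612 in monosome-seq. These 6 calls were all lost without disome-seq replicate 1, and each gene had at most 8 disome footprints in a replicate. By library totals 12 fell. In the other lists of this kind, 2 of 16 proton pump genes rose and 3 fell, 2 of 12 amino acid permease genes fell, and 4 of 24 genes of mitochondrial import and carriers rose (the porin gene POR1, a core gene, by 1.51) and 5 fell.

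Histone genes held more rises than falls, with 5 of 10 higher and 1 lower, against 9.03% and 9.42% of all genes tested. The list's median was 0.59. HTB2, which encodes H2B, had 62 and 59 disome footprints, against 257 and 222 monosome footprints. By the fit HTB2 stood at 2.38 (standard error 0.19, adjusted p = 4.6e-32 by edgeR, 0.0022 by voom). The H4 genes HHF1 and HHF2 rose by 2.10 and 1.58 and are core genes, as is HTB2, HTB1 and HHT1 rose by 0.94 and 1.29 but lost their calls without monosome-seq replicate 1 and likewise without replicate 2, and HTA2, an H2A gene, had 7 and 3 disome footprints, against 298 and 228 monosome footprints (-1.35), a call lost in every fit without 1 library. Histone messages took 0.502% ± 0.02 of the disome-seq libraries and 0.277% ± 0.00157 of the monosome-seq libraries (SD, n = 2 each). Among 19 genes of regulators rich in glutamine or asparagine, 1 rose and 1 fell. The riser was CYC8, a corepressor, with 62 and 10 disome footprints, against 119 and 102 monosome footprints, and its rise of 2.73 was 1.09 (adjusted p = 0.22 by edgeR) without disome-seq replicate 1.

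Of 2118 genes outside the 43 lists 117 (5.52%) rose and 152 (7.18%) fell, and of the 971 in a list 162 (16.7%) rose and 139 (14.3%) fell, but the lists were chosen with earlier results known and nothing is read from this difference. The genes that follow are core genes outside the lists, named after their values were seen, and stand for no group. NPL3, an mRNA-binding shuttling protein, had 118 and 119 disome footprints, against 445 and 345 monosome footprints (2.64). YRA1, an mRNA export factor, had 62 and 47 disome footprints, against 170 and 140 monosome footprints (2.85). NAB2, a poly(A)-binding export factor, rose by 2.17, PUF3, which binds messages of mitochondrial proteins, by 2.14, and YRB1, a Ran-binding protein, by 2.55, or by 1.42 without disome-seq replicate 1. STO1, the large cap-binding subunit, KAP104, a nuclear import receptor, and SBP1, an RNA-binding repressor of translation, fell by 2.82, 2.74 and 2.41. OLA1, an Obg-like ATPase, had 143 and 258 disome footprints, against 663 and 492 monosome footprints (2.90, or 2.25 without disome-seq replicate 2). The α-factor genes MF(ALPHA)1 and MF(ALPHA)2, which encode secreted pheromone precursors, rose by 1.59 and 2.70 and are core genes.

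Short genes rose more often than long ones. When the tested genes were ordered by coding length into 5 equal parts, 18.0% of the shortest part (median length 492 nt) rose and 10.7% fell, and in the longest (median 3171 nt) 1.94% rose and 11.0% fell. The median log2 fold change stepped down over the 5 parts, at -0.08, -0.16, -0.31, -0.48 and -0.62. Ribosomal protein genes are short, yet the order was kept without them, with 13.3% of the shortest part and 2.03% of the longest higher. The genes that rose had a median coding length of 915 nt and those that fell of 1383 nt, against 1356 nt over all genes tested. These values include the 92 genes that passed the low-count filter through disome-seq only, of which 36 rose. What those genes add to the shares by length was not tested. Where on a gene the footprints lay is not in these totals.

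**Figure D5:**
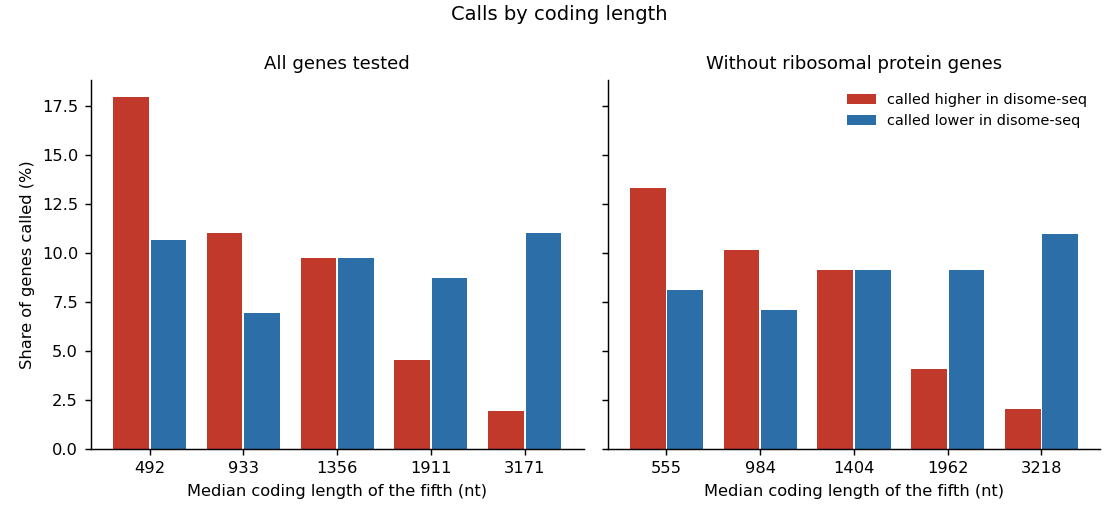
Genes tested were ordered by coding length and cut into 5 equal parts, for all genes (left panel) and without ribosomal protein genes (right panel). Bars give the percentage of genes called higher and lower in disome-seq. The share called higher steps down with length in both panels, from 18.0% to 1.94% on the left and from 13.3% to 2.03% on the right.

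Sequence features were compared over whole genes, by the presence of a run anywhere in the protein and by the stop codon. The study instead scored runs by their position in the exit tunnel of the leading ribosome, where 3 lysines gave its strongest signal. Gene totals do not bear on such positions. A run of 3 lysines was present in 18.6% of the proteins of genes that rose, in 25.1% of those that fell and in 24.1% of all tested. Runs of 3 prolines were in 5.02% of the risers, 8.59% of the fallers and 8.77% of all, runs of 3 glutamines in 5.38%, 7.56% and 11.1%, and runs of 3 glycines in 16.1%, 10.7% and 11.4%. Genes with such runs are longer than those without (median 1833 nt against 1230 nt for lysine), so length moves with these shares, and its part was not tested. Genes with 3 glycines are longer too (1647 nt against 1314 nt) but rose more often, 12.7% against 8.55%, whereas genes with each of the other runs rose less often. The stop codon TAA ended 59.1% of the genes that rose, 53.6% of those that fell and 49.9% of all. Among genes with TAA 10.7% rose, against 7.24% with TAG and 7.45% with TGA, and without ribosomal protein genes these shares were 8.61%, 6.91% and 6.94%. As examples, the last 60 nt of the coding sequence, about the span of 1 disome, are given for 3 genes that rose (ILV6, URA1 and HSC82) and 2 that fell (SUI1 and TPM2), from the R64 reference with the stop codon in capitals. The genes lie at chrIII:104619-105548 on the reverse strand (ILV6), chrXI:25215-26159 on the forward strand (URA1), chrXIII:632355-634472 on the forward strand (HSC82), chrXIV:187170-187496 on the reverse strand (SUI1) and chrIX:89230-89715 on the reverse strand (TPM2).
ILV6: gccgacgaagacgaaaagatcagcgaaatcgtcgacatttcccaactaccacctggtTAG
URA1: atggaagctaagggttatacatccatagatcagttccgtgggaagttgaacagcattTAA
HSC82: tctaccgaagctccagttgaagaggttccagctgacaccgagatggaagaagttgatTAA
SUI1: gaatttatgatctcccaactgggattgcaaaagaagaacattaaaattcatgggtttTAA
TPM2: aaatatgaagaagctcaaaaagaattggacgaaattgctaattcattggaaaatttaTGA
Genes with under 95% unique 28-nt windows made up 23.7% of the risers, 9.28% of the fallers and 6.25% of all genes tested, and without them 212 genes rose and 242 fell. What sequence shared between genes adds to a single gene's value was not tested.

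The calls were unevenly spread over abundance. Ordered by monosome level into 5 equal parts, the lowest part (median 33.6 RPM) had 46 rises and 0 falls on a median of 3 disome footprints per gene, and the highest (median 512.5 RPM) had 135 rises and 168 falls on a median of 38. In the part next to the lowest (median 51.1 RPM) 19 rose and 8 fell on a median of 2. The low-count filter bears on the same point: 92 of the tested genes passed it through the disome-seq libraries only, 36 of which rose, and 1402 passed through the monosome-seq libraries only, 129 of which fell. With 2 replicates an assay, the smallest exact permutation p that 2 against 2 samples can give is 0.333 (two-sided), so none was used.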

How the data were processed

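Per the labels and the study's methods, libraries of size-selected RNase I footprints carried a random 3-nt sequence; reads were trimmed (cutadapt 1.16), reads that Bowtie 1.2.2 mapped to ribosomal RNA were removed, and the rest were aligned to R64 coding sequences with TopHat2 2.1.1, reads with several alignments being discarded. The deposited tables hold raw counts of footprints per gene in 1 length class each, so their totals are not library depths. By the methods, reads alike in length, sequence and random tag counted as 1, and whether the deposited counts were made after that step is not given in the sources used here. Names and versions of the tools are in the submitters' processing notes. Tables were joined by gene, with a missing gene set to 0, and 5276 of 5278 genes matched the R64 annotation.

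Counts were filtered with filterByExpr (30.565 RPM in at least 2 samples), scaled by TMM and tested with edgeR 4.0.16 (quasi-likelihood test, R 4.3.3) at a Benjamini-Hochberg adjusted p of 0.05. One spread per gene was fitted for both assays although the disome-seq replicates were further apart, and limma 3.58.1 (voom with weights per assay) and DESeq2 1.42.0 were alternatives, with library totals, other filters, a replicate block and each sample left out. The fit was also run on simulated counts in which both assays had the same spread. That simulation cannot show how the fit handles an unequal spread, and no result here rests on it. For genes with 0 disome footprints in both replicates a nominal bound, set at 3 footprints over both replicates, replaced the fold change. Windows of 28 nt and of 58 nt were counted as unique when found once over all R64 coding sequences. Python 3.11.15, numpy 2.4.6, pandas 2.3.3, scipy 1.17.1 and matplotlib 3.10.9 were used for the rest.

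Genes were named as the 10 largest rises and falls without overlap, the largest called rise and fall of each gene list described, genes the study discusses, genes deleted in the strain and the 10 genes with the most disome footprints; others are said to be chosen after their values were seen, or stand as further called members of a list. The genes and the 43 lists (1118 genes) were chosen with earlier results of these data known, and lists are described by counts and medians with no test.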

Additional observations from a re-analysis of the deposited data

How the results depend on the processing

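Of the 3 counts, 570 genes called, 279 higher and 291 lower in disome-seq, the number lower depended most on the processing. It was 162 with DESeq2 (336 higher), 511 with library totals (223 higher), 162 with a filter on monosome-seq alone (229 higher) and 386 with no filter (220 higher). Voom with weights per assay, which lets the assays differ in spread, called 313 genes, 147 higher and 166 lower, and 129 and 119 of the genes called by edgeR were among them. Leaving out 1 sample left 150 to 281 genes called, 95 to 193 higher and 55 to 88 lower. With the replicate block 403 genes were called, 218 higher and 185 lower. Whether the replicate numbers pair the samples cannot be told. Deviations from the group means of samples with the same number had a correlation of 0.0185 over the genes tested. Only 2 pairs exist and disome-seq counts were noisy, so this value cannot decide it. The causes of these differences were not tested. Of the genes named by rule, none that was called changed sign under an alternative, while RNR2, called but outside that rule, did so without disome-seq replicate 1. URA3, TDH3, PDC1, YEF3, SSB2, HIS3 and HSP82, none of them called, changed sign under at least 1 alternative each. Which direction held more calls turned with the tool and the scaling. Relative to all genes, the medians of the lists for amino acid permeases (0.45 without disome-seq replicate 1, in place of -0.19), lysine (-0.46, in place of 0.13), arginine, fatty acid and ergosterol synthesis, serine and glycine, CCT, cell wall, cytoskeleton, mitochondrial import, the tricarboxylic acid cycle and ribosome assembly changed sign under 1 to 4 alternatives, and that of collision sensing, at 0, lay on either side. Over the named genes, 980 values kept their side of the threshold, 220 lost the call and 7 gained it. The 980 include changes of sign where neither fit called the gene. The median of all genes tested lay at -0.63 with library totals, -0.79 with no filter, -0.31 with DESeq2 and -0.24 with voom, beside -0.37 with TMM factors and all 4 samples. Depth limits what can be said of 187 genes tested that had 0 disome footprints.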
